A study of Mus musculus with 15 samples.

Results

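The collagen genes are the genes for the chains of collagen, the main structural protein of the extracellular matrix. They were followed through the conversion of mouse fibroblasts into cardiac progenitors and on to cardiac derivatives. Every row of the deposited count table whose gene name is Col, a number, a and a number was taken, which gave 43 genes of 37991 in the table. By the assembly their chains are known to form, 11 of them are fibrillar, 6 are basement membrane (type IV) chains, 9 are fibril-associated (FACIT) and 17 are of other kinds. The rule uses no expression value. All 43 had counts in every group and passed the filter on low counts.

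RNA sequencing covered 15 libraries of mouse cells in 5 groups of 3, all labelled wild type on a mixed C57BL/6 and 129J/SvE background. The start was secondary mouse embryonic fibroblasts (2nd MEFs, here MEFs) at passage 3 in MEF medium, usually fibroblasts that already carry reprogramming factors under an inducible promoter. Day 9 cultures were such MEFs that had spent 6 days in a reprogramming medium, then 2 in a transdifferentiation medium and finally 1 in ieCPC basal medium with what the labels call BACS. Induced expandable cardiovascular progenitor cells (ieCPCs) had been sorted on day 13 and grown in that basal medium with BACS, with libraries from passage 3 (P3) and from passage 12 (P12). The cardiac derivatives (CM derivatives) were ieCPCs kept for 25 days in a serum-free differentiation medium, and the labels do not say from which passage. All ieCPC and CM libraries therefore come after a sort, and the 2 earlier groups do not. The comparisons address how the collagen genes differ between starting fibroblasts, an intermediate stage, the expandable progenitors at an early and a late passage, and their differentiated progeny.

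Collagen chains assemble in threes into a triple helix, in which glycine recurs at the start of each triplet of residues. Fibrillar collagens build the banded fibrils of skin, bone, cartilage and vessel wall, and FACIT collagens sit on the fibril surface. Type IV chains form the sheet-like network of basement membranes, which in heart muscle surrounds each cardiomyocyte, while most fibrillar collagen in the heart is made by fibroblasts. Type II, type IX and type XI chains together form the thin fibrils of cartilage. Before and after secretion the chains are hydroxylated, folded, trimmed of their propeptides and crosslinked by enzymes that are described after the chains.

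The repeat is visible in the coding sequence as a run of 9-base units that each start with GG, the first 2 bases of every glycine codon. In the longest coding transcript of each gene in GENCODE M21 (GRCm38), all 43 collagen genes held a run of at least 20 such units, inside the coding sequence and in frame. Of 21858 other genes with a coding transcript, 23 (0.105%) held such a run in any frame and anywhere in the transcript. Frame and position were not checked for these 23, which include Col26a1, named differently in the count table. Fibrillar genes had the longest uninterrupted runs, of 216 to 344 units with a median of 338. The longest run was 39 to 66 units in type IV genes, 32 to 113 in FACIT genes and 28 to 87 in the others, whose helices are known to be interrupted. The first 12 units of the longest run are printed for 5 genes the results turn on, to show the repeat that defines the family. They are written 5′ to 3′ with capitals for the GG that opens each 9-base unit.
Col1a1: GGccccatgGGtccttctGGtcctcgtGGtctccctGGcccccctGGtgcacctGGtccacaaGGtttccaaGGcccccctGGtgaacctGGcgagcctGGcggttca
Col2a1: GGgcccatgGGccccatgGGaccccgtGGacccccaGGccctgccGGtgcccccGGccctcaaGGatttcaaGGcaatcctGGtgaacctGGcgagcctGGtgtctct
Col9a2: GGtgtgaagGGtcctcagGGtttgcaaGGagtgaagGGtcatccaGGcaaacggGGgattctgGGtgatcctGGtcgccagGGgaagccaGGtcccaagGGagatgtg
Col9a3: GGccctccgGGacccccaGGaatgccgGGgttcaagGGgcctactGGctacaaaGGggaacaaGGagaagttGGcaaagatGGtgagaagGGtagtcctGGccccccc
Col4a1: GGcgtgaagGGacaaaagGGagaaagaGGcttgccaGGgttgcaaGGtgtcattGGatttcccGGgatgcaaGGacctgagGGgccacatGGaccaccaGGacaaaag

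Depth was 21823056 to 29996464 gene counts a library, with 21406 to 23226 genes detected. Levels are given as CPM, the counts of a gene per 1000000 counts after TMM scaling, and a level per kilobase divides by the summed exon length in the deposited table. Mitochondrially encoded genes took 20.8% to 28.3% of counts outside the CM libraries and 52.0% to 59.4% in them. CM replicate 3 stood apart from its group, with a chi-square per degree of freedom of 25.7 to 40.8 against its 2 fellow libraries and 2.09 to 10.5 for all other replicate pairs, so calls in CM derivatives were also made without it. The collagen log2 change that then moved most was that of Col13a1, by 0.32 against P3 ieCPCs and 0.33 against MEFs, and 2 calls were gained and 1 was lost. Whether replicates came from separate cultures is not in the labels, and p-values therefore speak only for the spread among these libraries, which may be technical. Of 7 cardiomyocyte markers, the summed level was 2.49 to 3.16 CPM in MEFs, with Myl7 at 0, 40.0 to 48.8 in P3 ieCPCs and 3172 to 5745 in CM derivatives. The sum of 8 fibroblast markers was 2745 to 2993 CPM in MEFs, 3247 to 3452 at day 9, 3052 to 3116 in P3 ieCPCs, 3881 to 4208 in P12 ieCPCs and 6947 to 9080.2 in CM derivatives, none of the 8 at 0 in any group. Dcn and Lum carried the CM sum, at 3296 ± 389 and 3271 ± 559.8 CPM against 53.6 ± 2.07 and 56.3 ± 0.710 in MEFs, whereas 5 of the 8 were lower and 3 higher in CM derivatives than in MEFs, with Thy1 at 12.0 ± 4.73 and 415 ± 17.9 CPM. In P3 ieCPCs 5 of the 8 were lower and 2 higher than in MEFs, with Thy1 at 1.18 ± 0.142 CPM and Dcn and Lum at 659 ± 14.8 and 1250 ± 26.5. Of all tested genes, 34.7% were lower and 35.9% higher in CM derivatives than in MEFs. For P3 ieCPCs against MEFs these shares were 32.5% and 33.3%.

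Collagen transcripts made up the largest share of counts in day 9 cultures, though day 9 and ieCPC libraries overlapped once counts were divided by gene length. The 43 genes together took 2.00, 2.04 and 2.05% of gene counts in the MEF libraries, 2.97, 2.75 and 2.905% at day 9, 2.20, 2.30 and 2.31% in P3 ieCPCs, 2.31, 2.38 and 2.36% in P12 ieCPCs and 1.22, 1.33 and 1.01% in CM derivatives. The 3 day 9 libraries lay above and the 3 CM libraries below every other library. Means were 2.03% ± 0.0298, 2.87% ± 0.109, 2.27% ± 0.0598, 2.35% ± 0.0364 and 1.19% ± 0.166 in that order (SD, n = 3). With 3 libraries a group, an exact permutation test of such a share cannot give a p below 0.1. Mitochondrially encoded counts weigh on this share. Without them the means were 2.79% ± 0.0670, 3.78% ± 0.114, 2.87% ± 0.0784, 3.11% ± 0.0227 and 2.62% ± 0.149, so that CM libraries overlapped those of MEFs and of no other group. In bulk libraries, fewer collagen-producing cells and less collagen RNA per cell cannot be told apart.

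**Figure D1:**
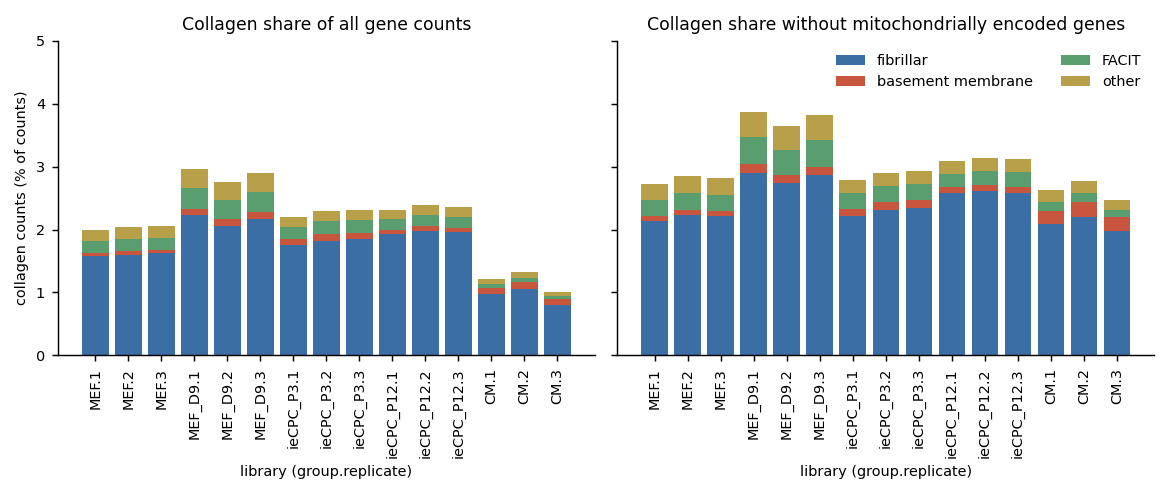
Collagen counts as a percentage of counts in each of the 15 libraries, stacked by class, over all gene counts on the left and without mitochondrially encoded genes on the right. Day 9 libraries reach 2.75% to 2.97% on the left and CM libraries 1.01% to 1.33%, and the basement membrane band is 8.37% to 8.91% of each CM bar and at most 4.48% of any other.

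Fibrillar genes held most of these counts in every group. Their share of collagen counts was 78.7% ± 0.172 in MEFs, 74.9% ± 0.1195 at day 9, 79.6% ± 0.298 in P3 ieCPCs, 83.1% ± 0.265 in P12 ieCPCs and 79.5% ± 0.410 in CM derivatives. Type IV genes went from 2.65% ± 0.0308 of collagen counts in MEFs to 3.54% ± 0.0192 at day 9, 4.31% ± 0.145 in P3 ieCPCs, 3.17% ± 0.00769 in P12 ieCPCs and 8.61% ± 0.273 in CM derivatives. No CM library was below 8.37% and no other library above 4.48%. The FACIT share was 11.04% ± 0.0666 at day 9 and 4.98% ± 0.237 in CM derivatives, whose libraries again overlapped no other group. Col12a1 held most of these counts, at 2526 ± 47.1 CPM at day 9 and 579 ± 45.7 in CM derivatives, while Col14a1 was at 79.3 ± 3.39 and 352 ± 54.9.

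Each gene was tested with edgeR's quasi-likelihood test in a single model over all 15 libraries, with Benjamini-Hochberg adjustment over 17999 tested genes, and rose and fell are used for an adjusted p under 0.05. From MEFs to day 9, 27 collagen genes rose and 5 fell, with 57.2% of all tested genes changed, 29.7% higher and 27.4% lower. From day 9 to P3 ieCPCs 20 rose and 18 fell, where 60.7% of all genes changed, 28.4% higher and 32.3% lower. Between MEFs and P3 ieCPCs 23 rose and 16 fell, with 65.8% of all genes changed, 33.3% higher and 32.5% lower. From P3 to P12 ieCPCs 18 rose and 15 fell, against 36.8% of all genes changed, 17.3% higher and 19.5% lower. In CM derivatives 15 were higher and 18 lower than in P3 ieCPCs, against 63.1% of all genes changed, 31.9% higher and 31.2% lower. Relative to MEFs, 25 were higher and 14 lower in CM derivatives, against 70.6% of all genes changed, 35.9% higher and 34.7% lower. Upper-quartile scaling moved the split of all genes from P3 to P12, from 3122 higher and 3507 lower to 3935 and 2752. Without CM replicate 3 the CM counts of collagen genes were 16 and 19 against P3 ieCPCs and 24 and 14 against MEFs. The median log2 change over the 43 was 0.49, -0.02, 0.47, 0.17, -0.22 and 0.73, and over all tested genes 0.05, -0.03, 0.03, -0.00, -0.01 and 0.03. The called share of the 43 was above that of all tested genes in each comparison, a difference that was not tested. These comparisons share libraries and are not independent of each other. Levels of single genes are given with the SD over 3 libraries and log2 changes with the SE.

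By class, type IV genes rose more often than they fell in 5 of the 6 comparisons. Of the 6 genes, 5 rose and none fell from MEFs to day 9, and 4 rose from day 9 to P3 ieCPCs, where Col4a1 (log2 change -0.25 ± 0.05, adjusted p = 3.73e-04) and Col4a2 (log2 change -0.31 ± 0.06, adjusted p = 6.69e-05) fell. All 6 rose from MEFs to P3 ieCPCs, and all 6 were higher in CM derivatives than in P3 ieCPCs and than in MEFs, while 1 rose and 4 fell from P3 to P12. The 11 fibrillar genes split in every comparison, with 4 higher and 7 lower in P3 ieCPCs than in MEFs and 6 higher and 2 lower at P12 than at P3. Of the 9 FACIT genes, 6 rose and none fell from MEFs to day 9, while 2 were higher and 5 lower in CM derivatives than in P3 ieCPCs. Of 43 genes, 14 had their highest mean at day 9 and 3 in MEFs, and 19 had their lowest mean in MEFs. The same counts were not made over all tested genes, so they cannot be called particular to collagen genes. They also include Col6a4 and Col22a1, with means under 1 CPM in every group.

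**Figure D2:**
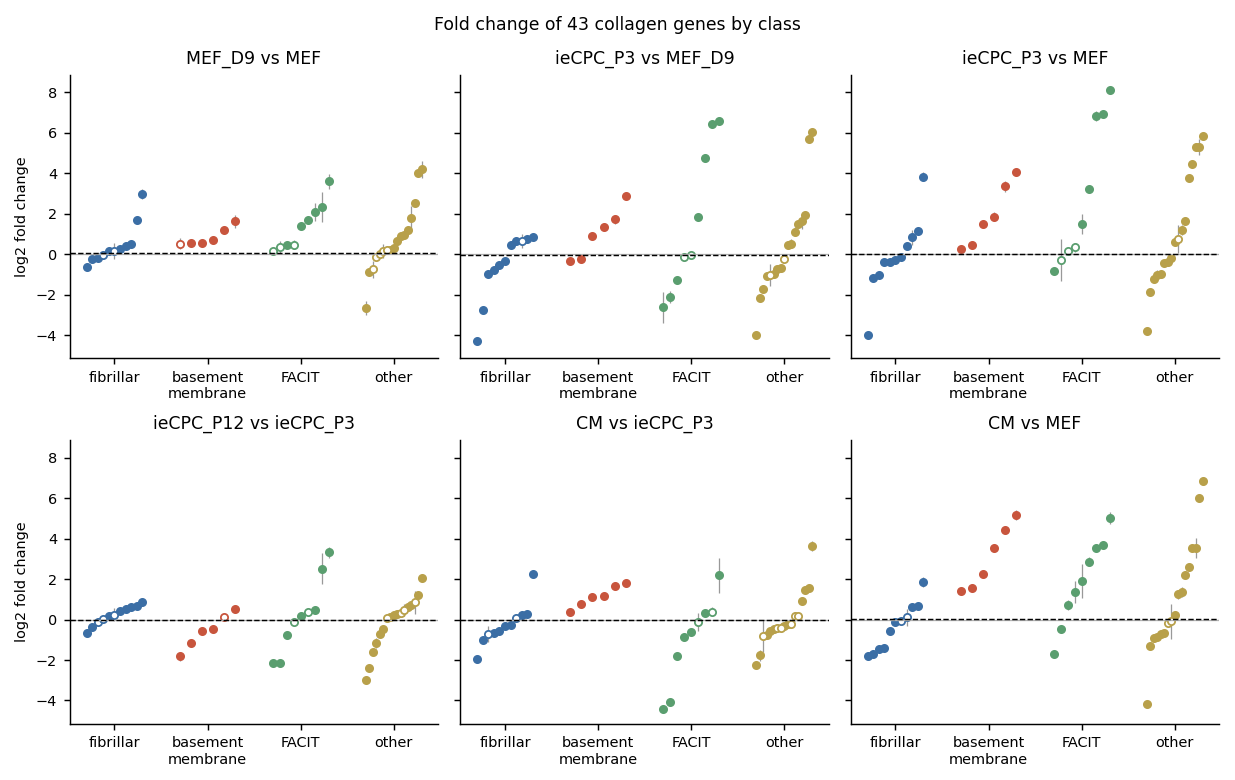
Log2 fold change of each of the 43 collagen genes by class in the 6 comparisons, with bars for the SE, filled points for an adjusted p under 0.05 in edgeR's test and open points for the rest. The dashed line is the median of all tested genes, between -0.03 and 0.05, and the 6 basement membrane points lie above it in both CM comparisons.

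**Figure D3:**
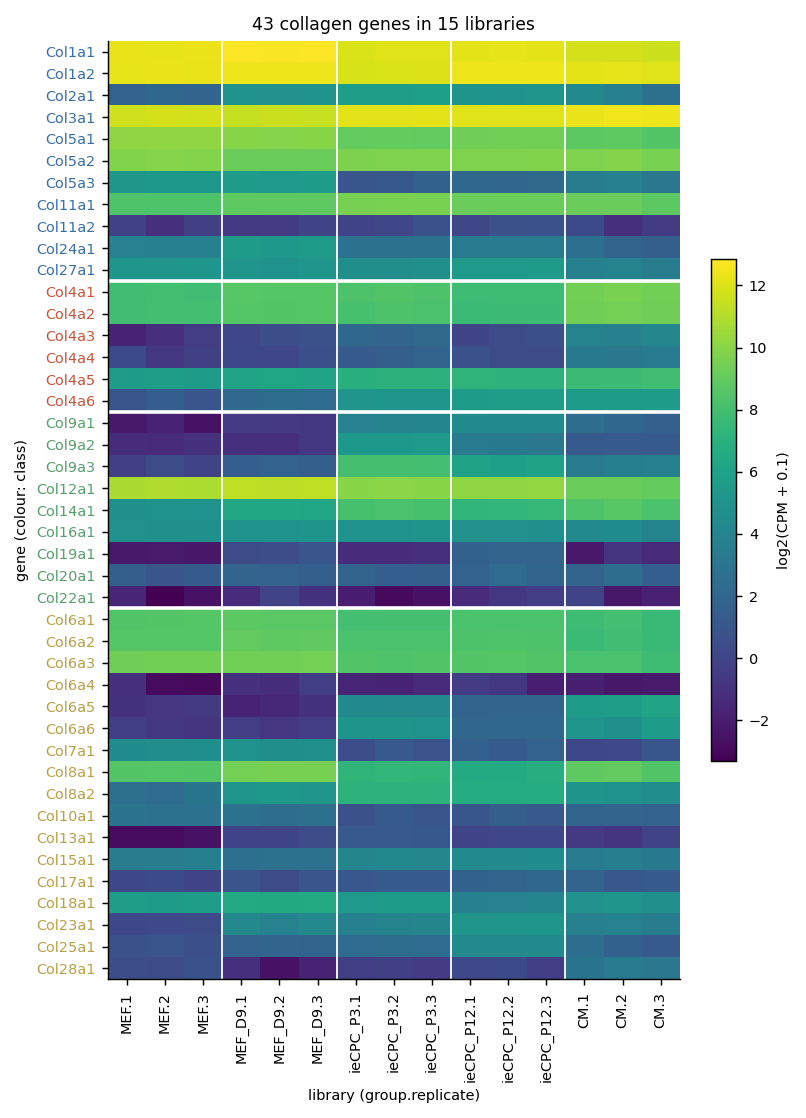
Level of the 43 collagen genes as log2(CPM + 0.1) in the 15 libraries, ordered by class with gene names coloured by class. Col1a1, Col1a2 and Col3a1 are bright in all libraries, and Col9a1, Col9a2, Col9a3, Col6a5 and Col6a6 are dark in MEFs and at day 9.

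Among the fibrillar genes, type I and type III chains stayed abundant in every group, while the ratio of Col3a1 to Col1a1 was lowest at day 9 and highest in CM derivatives. Col1a1 and Col1a2 encode both chains of type I collagen, the main collagen of skin and bone, and Col3a1 the chain of type III, its partner in stretchable tissues. The 3 genes together held 65.6% of collagen counts at day 9 and 72.2% in P12 ieCPCs, the lowest and the highest group means. Col1a1 was measured at 5087, 4882 and 5266 CPM in the 3 MEF libraries, 7439, 6836 and 7179 at day 9, 3986, 4379.6 and 4271 in P3 ieCPCs, 4766, 4908 and 4743 in P12 ieCPCs and 3570.4, 3533 and 3185 in CM derivatives. The day 9 libraries were the highest and the CM libraries the lowest, and neither overlapped another group. It rose 1.41-fold from MEFs to day 9 (log2 change 0.49 ± 0.06, adjusted p = 3.08e-07, edgeR's quasi-likelihood test) and fell 1.70-fold from there to P3 ieCPCs (log2 change -0.76 ± 0.06, adjusted p = 2.04e-10). The rise from P3 to P12 ieCPCs was small (log2 change 0.19 ± 0.06, adjusted p = 0.0168) and was not called without P3 replicate 1 (adjusted p = 0.0814) or without P12 replicate 2 (adjusted p = 0.0673).

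Col1a2 moved less, from 4893, 5431 and 5064 CPM in MEFs to 5707, 5574 and 5679.8 at day 9, 3824, 3983 and 4034 in P3 ieCPCs, 5671, 5635 and 5511 in P12 ieCPCs and 4617, 4941 and 4383 in CM derivatives. P3 ieCPCs were the lowest group, below every other library. It fell 1.43-fold from day 9 to P3 ieCPCs (log2 change -0.52 ± 0.06, adjusted p = 6.56e-08) and rose 1.42-fold from P3 to P12 (log2 change 0.51 ± 0.06, adjusted p = 2.67e-07). Its differences from MEFs at day 9 (log2 change 0.14 ± 0.06, adjusted p = 0.0446) and in CM derivatives (log2 change -0.14 ± 0.06, adjusted p = 0.0342) sat close to the threshold, and each lost its call under other settings: the first with RLE scaling (adjusted p = 0.0659), without a low-count filter (0.0611) and without any of 5 single libraries (0.0896 to 0.223), the second with upper-quartile scaling (0.0783), with only the 6 libraries compared (0.333) and without MEF replicate 2 (0.132).

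Col3a1 took the opposite course to Col1a1. It stood at 3365, 3603 and 3482 CPM in the 3 MEF libraries, 2820.3, 3073 and 2919 at day 9, 4575, 4574 and 4752 in P3 ieCPCs, 4245, 4228 and 4232 in P12 ieCPCs and 5305, 5924 and 5529 in CM derivatives. The day 9 libraries were the lowest and the CM libraries the highest, with no overlap between any of the groups. Col3a1 fell 1.19-fold from MEFs to day 9 (log2 change -0.25 ± 0.06, adjusted p = 8.05e-04), rose 1.58-fold from day 9 to P3 ieCPCs (log2 change 0.66 ± 0.06, adjusted p = 8.70e-10) and was 1.60-fold higher in CM derivatives than in MEFs (log2 change 0.68 ± 0.06, adjusted p = 2.89e-10, all by edgeR's test). From P3 to P12 its log2 change of -0.13 ± 0.06 was not called (adjusted p = 0.0796), though it was with DESeq2 (adjusted p = 0.0366), with limma voom (0.0150), without a low-count filter (0.0489) and with only these 6 libraries (0.00443). Per kilobase, the Col3a1 to Col1a1 ratio was 0.517, 0.577 and 0.517 in the MEF libraries, 0.296, 0.351 and 0.318 at day 9, 0.898, 0.817 and 0.870 in P3 ieCPCs, 0.696, 0.674 and 0.698 in P12 ieCPCs and 1.16, 1.31 and 1.36 in CM derivatives. The 5 groups did not overlap in this ratio, with day 9 lowest and CM derivatives highest. Col1a2, the other type I chain, was lowest in P3 ieCPCs and does not enter this ratio.

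Type I collagen is known as a trimer with more of the chain from Col1a1 than of the chain from Col1a2. The Col1a1 to Col1a2 ratio per kilobase was 1.84 ± 0.150 in MEFs, 2.34 ± 0.0715 at day 9, 1.97 ± 0.0544 in P3 ieCPCs, 1.59 ± 0.0290 in P12 ieCPCs and 1.37 ± 0.0571 in CM derivatives (SD, n = 3). The order of groups does not depend on gene length, but the level does, because the deposited Col1a2 length of 12145 bases is far above the 5348 of its longest coding transcript. With the latter lengths the same ratios were 0.895, 1.14, 0.962, 0.773 and 0.666. The summed level of 6 markers of osteoblasts, cells that also make much type I collagen, was 1485 to 1599 CPM in MEFs, 129 to 139 at day 9, 14.6 to 15.7 in P3 ieCPCs, 93.2 to 96.8 in P12 ieCPCs and 139 to 186 in CM derivatives, with none of the 6 at 0. In MEFs Spp1 made up nearly all of that sum, at 1471 ± 59.3 CPM. Whether these cells have a part in the type I levels was not tested.

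The type V chains, which join type I fibrils and are known to set their diameter, diverged. Col5a3 had the largest fall of any fibrillar gene. It was at 38.2, 38.7 and 38.7 CPM in MEFs and 48.6, 43.8 and 47.0 at day 9, against 1.92, 2.10 and 3.11 in P3 ieCPCs, 4.26, 3.88 and 4.75 in P12 ieCPCs and 11.7, 13.0 and 8.69 in CM derivatives. Every ieCPC and CM library lay below every MEF and day 9 library. Col5a3 fell 19.5-fold from day 9 to P3 ieCPCs (log2 change -4.29 ± 0.13, adjusted p = 5.11e-18) and rose 4.70-fold from P3 ieCPCs to CM derivatives (log2 change 2.23 ± 0.15, adjusted p = 9.23e-12, 2.37 without CM replicate 3). Col5a1 went from 1152 ± 3.45 CPM in MEFs to 505 ± 11.2 in P3 ieCPCs (log2 change -1.19 ± 0.06, adjusted p = 7.14e-14) and 425 ± 46.2 in CM derivatives. Its small fall from MEFs to day 9 (log2 change -0.20 ± 0.06, adjusted p = 0.00687) was not called with upper-quartile scaling (adjusted p = 0.0657). Col5a2 fell 1.54-fold at day 9, to 599 ± 11.48 CPM from 921 ± 49.3 (log2 change -0.62 ± 0.06, adjusted p = 6.14e-09), and was back at 832 ± 19.8 CPM in P3 ieCPCs. The Col5a1 to Col5a2 ratio per kilobase was 1.42 ± 0.0791 in MEFs, 1.89 ± 0.0882 at day 9, 0.686 ± 0.00779 in P3 ieCPCs, 0.894 ± 0.0207 in P12 ieCPCs and 0.555 ± 0.0161 in CM derivatives, with no overlap between groups. With the longest coding transcripts the ratios were 0.988, 1.32, 0.478, 0.624 and 0.387 in the same order.

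Col24a1 and Col27a1 encode fibrillar chains of the most distant branch of the class. Col24a1, known from developing bone, peaked at day 9, at 48.9, 39.6 and 44.3 CPM against 14.4, 12.9 and 13.3 in MEFs, 6.37, 6.55 and 6.75 in P3 ieCPCs, 10.0, 10.4 and 10.1 in P12 ieCPCs and 6.04, 3.46 and 2.94 in CM derivatives. The day 9 libraries lay above all others. It rose 3.27-fold from MEFs to day 9 (log2 change 1.71 ± 0.11, adjusted p = 1.40e-11), fell 6.75-fold to P3 ieCPCs (log2 change -2.75 ± 0.12, adjusted p = 6.23e-15) and rose 1.55-fold from P3 to P12 (log2 change 0.63 ± 0.14, adjusted p = 6.95e-04, edgeR's test). Col27a1, known from cartilage, was at 35.3 ± 0.526 CPM in MEFs and 27.0 ± 1.49 in P3 ieCPCs, rose to 43.7 ± 3.34 at P12 (log2 change 0.70 ± 0.08, adjusted p = 1.01e-07) and was at 13.2 ± 1.59 in CM derivatives.

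Among the chains of cartilage fibrils, Col2a1, Col11a1 and the type IX genes were highest in ieCPCs, and the type IX genes had some of the largest fold changes of the family in the 6 comparisons. Col2a1 encodes the type II chain, the main collagen of cartilage, and Col9a1, Col9a2 and Col9a3 the type IX chains that decorate type II fibrils. Col9a3 was measured at 0.729, 1.24 and 0.878 CPM in the 3 MEF libraries, 2.80, 3.38 and 2.94 at day 9, 267, 268 and 264 in P3 ieCPCs, 63.4, 56.9 and 63.2 in P12 ieCPCs and 10.6, 12.7 and 13.9 in CM derivatives. P3 ieCPCs lay far above every other library, P12 ieCPCs came second, and no groups overlapped. From day 9 to P3 ieCPCs Col9a3 rose 87.9-fold (log2 change 6.46 ± 0.10, adjusted p = 1.92e-23), with edgeR's quasi-likelihood test and Benjamini-Hochberg adjustment. It then fell 4.35-fold from P3 to P12 (log2 change -2.12 ± 0.07, adjusted p = 7.93e-17) and was 21.5-fold lower in CM derivatives than in P3 ieCPCs (log2 change -4.42 ± 0.08, adjusted p = 1.19e-21, -4.52 without CM replicate 3). Its exons overlap those of Tcfl5 on the other strand over 234 bases, 6.07% of its length, and the strand setting of the counting is not given in the sources used here, but Tcfl5 had 978 counts in all 15 libraries together.

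Col9a2 had the same order of group means, at 0.307, 0.280 and 0.386 CPM in MEFs, 0.366, 0.379 and 0.513 at day 9, 40.0, 39.9 and 42.6 in P3 ieCPCs, 9.85, 9.19 and 8.601 in P12 ieCPCs and 2.35, 2.41 and 2.45 in CM derivatives. MEF and day 9 libraries overlapped at under 1 CPM, and the other groups did not overlap. Its rise from day 9 to P3 ieCPCs was 96.0-fold (log2 change 6.59 ± 0.13, adjusted p = 1.68e-21), and it fell 4.43-fold to P12 (log2 change -2.15 ± 0.08, adjusted p = 1.74e-15). Col9a1 differed from both at the late passage. It was at 0.115, 0.200 and 0.0702 CPM in MEFs, 0.599, 0.531 and 0.513 at day 9, 14.3, 15.04 and 15.8 in P3 ieCPCs, 21.8, 20.7 and 21.1 in P12 ieCPCs and 5.54, 4.14 and 3.00 in CM derivatives. P12 libraries were its highest, with no overlap with P3. It rose 27.2-fold from day 9 to P3 ieCPCs (log2 change 4.76 ± 0.18, adjusted p = 2.44e-16) and 1.41-fold from P3 to P12 (log2 change 0.50 ± 0.11, adjusted p = 0.00117).

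Type IX collagen is known as a trimer of these 3 different chains in equal parts, while their RNA levels were unequal. Per kilobase, Col9a3 was 5.25 ± 0.233 times Col9a2 in P3 ieCPCs, 5.35 ± 0.487 times in P12 ieCPCs and 4.15 ± 0.477 times in CM derivatives. Col9a1 was 0.222 ± 0.00628 times Col9a2 in P3 ieCPCs and 1.39 ± 0.0748 times in P12 ieCPCs, and the libraries of the 2 passages did not overlap in that ratio. With the longest coding transcripts these 2 values were 0.281 and 1.76.

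Col2a1 was already well above MEFs at day 9. It was measured at 3.3, 4.17 and 3.76 CPM in the 3 MEF libraries, 29.9, 28.5 and 30.1 at day 9, 52.9, 50.8 and 55.9 in P3 ieCPCs, 33.6, 31.0 and 34.6 in P12 ieCPCs and 21.5, 12.9 and 6.24 in CM derivatives. MEFs were lowest and P3 ieCPCs highest, and the CM libraries spread over a wider range than those of any other group. Col2a1 rose 7.89-fold from MEFs to day 9 (log2 change 2.98 ± 0.22, adjusted p = 1.05e-10) and a further 1.80-fold to P3 ieCPCs (log2 change 0.85 ± 0.17, adjusted p = 1.55e-04). It fell 1.61-fold from P3 to P12 ieCPCs (log2 change -0.69 ± 0.17, adjusted p = 0.00259), a call that DESeq2 did not make (adjusted p = 0.0681). In CM derivatives it was 3.90-fold lower than in P3 ieCPCs (log2 change -1.96 ± 0.19, adjusted p = 5.17e-09), with a log2 change of -1.64 without CM replicate 3, the lowest of the group.

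Col11a1, a type XI chain that starts cartilage fibrils and also pairs with type V chains, was well expressed in all groups and again highest in P3 ieCPCs. Its levels were 341, 345 and 341 CPM in the 3 MEF libraries, 461, 462 and 461 at day 9, 761, 781 and 772 in P3 ieCPCs, 582, 598 and 598 in P12 ieCPCs and 567, 561 and 449.9 in CM derivatives. MEF libraries were lowest and P3 libraries highest. It rose 2.25-fold from MEFs to P3 ieCPCs (log2 change 1.17 ± 0.07, adjusted p = 2.06e-13) and fell 1.30-fold to P12 (log2 change -0.38 ± 0.06, adjusted p = 5.03e-05). Its partner Col11a2 was low, at 0.635 ± 0.240 CPM in MEFs and 1.15 ± 0.390 in P3 ieCPCs, and was called in 1 of the 6 comparisons (P3 ieCPCs against MEFs, adjusted p = 0.0469 in edgeR's test), a call not made by DESeq2 or limma voom, nor without MEF replicate 2 or 3 or P3 replicate 2 or 3. Per kilobase, Col11a1 exceeded Col2a1 in every library, by 9.07 ± 0.495 times in P3 ieCPCs and 57.6 ± 6.40 times in MEFs. Col10a1, the type X chain of the enlarged chondrocytes at the growth plate, did not follow the others. It was at 6.82 ± 0.443 CPM in MEFs, 1.89 ± 0.393 in P3 ieCPCs (log2 change -1.84 ± 0.16, adjusted p = 7.00e-10) and 3.57 ± 0.187 in CM derivatives.

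Cartilage markers were read beside these chains. The sum of 7 chondrocyte marker genes was 30.05 to 32.1 CPM in MEFs, 20.2 to 22.3 at day 9, 135 to 140.4 in P3 ieCPCs, 102 to 106 in P12 ieCPCs and 87.8 to 145 in CM derivatives. From day 9 to P3 ieCPCs all 6 tested ones rose, with Sox9, the transcription factor known to drive Col2a1, at 16.2 ± 1.46 and 94.4 ± 1.24 CPM and Acan, the main cartilage proteoglycan, at 0.618 ± 0.0768 and 14.2 ± 0.648. In MEFs both were above day 9, at 27.7 ± 1.42 CPM for Sox9 and 1.19 ± 0.269 for Acan, whereas Col2a1 rose from MEFs to day 9. Of the 6, 4 rose and 2 fell in that earlier step, where 29.7% of all tested genes rose and 27.4% fell. Matn1 was at 0 in all 3 P3 libraries. From P3 to P12, 5 of the 6 fell and 1, Hapln1, rose, from 6.91 ± 0.742 to 28.4 ± 1.51 CPM. Of all tested genes, 28.4% rose from day 9 to P3 ieCPCs and 19.5% fell from P3 to P12. In CM derivatives Comp made up most of the sum, at 83.4 ± 22.2 CPM, while Sox9 was at 25.7 ± 5.30 and Acan at 1.28 ± 0.859. The part of chondrocyte-type cells in the levels of types II, IX and XI was not tested.

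**Figure D4:**
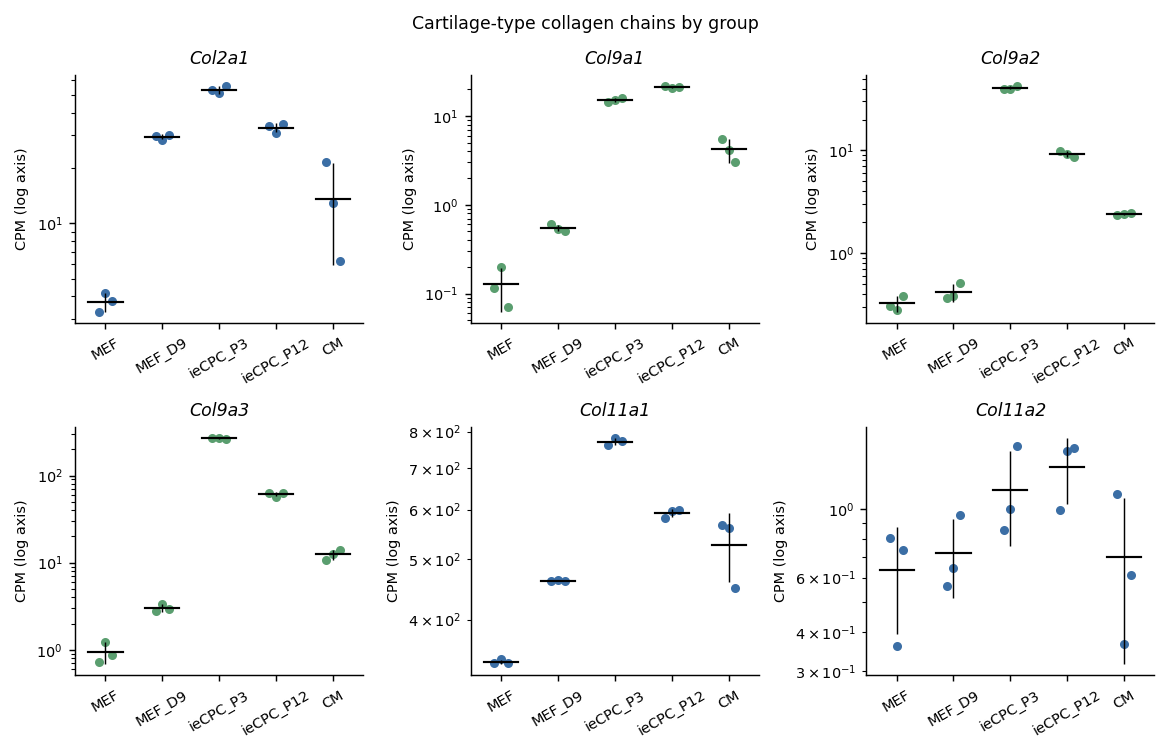
Level in CPM, on a log axis that differs between panels, of 6 cartilage-type collagen genes in each library, with a horizontal mark for the group mean and a vertical line for the SD. Col9a2 and Col9a3 peak in P3 ieCPCs at 40.8 and 266 CPM, Col9a1 in P12 ieCPCs at 21.2, and the 3 CM libraries spread most for Col2a1.

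All 6 type IV chains were higher in CM derivatives than in MEFs, the starting fibroblasts. The chains of Col4a1 and Col4a2 form the common network of nearly all basement membranes, and those of Col4a3 to Col4a6 the more specialised ones of kidney, lung, eye and smooth muscle. Col4a1 was at 237, 245 and 239.6 CPM in the 3 MEF libraries, 406, 390.1 and 394 at day 9, 323, 353 and 325 in P3 ieCPCs, 232, 229 and 227 in P12 ieCPCs and 691, 767 and 677 in CM derivatives. The CM libraries lay above all others, and the P12 libraries were the lowest. It rose 1.65-fold from MEFs to day 9 (log2 change 0.72 ± 0.05, adjusted p = 1.18e-10), fell 1.46-fold from P3 to P12 (log2 change -0.54 ± 0.05, adjusted p = 3.08e-08) and was 2.13-fold higher in CM derivatives than in P3 ieCPCs (log2 change 1.09 ± 0.05, adjusted p = 3.68e-14, 1.12 without CM replicate 3).

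Col4a2 kept pace with Col4a1, its trimer partner. It was at 243, 264 and 255 CPM in MEFs, 383, 364 and 379 at day 9, 283, 322 and 303 in P3 ieCPCs, 211, 219.5 and 219 in P12 ieCPCs and 643, 723 and 657 in CM derivatives. The order of the groups was the same as for Col4a1. The CM level was 2.23-fold that of P3 ieCPCs (log2 change 1.16 ± 0.06, adjusted p = 4.29e-14, edgeR). The known trimer holds more of the Col4a1 chain than of the Col4a2 chain, while their RNA ratio per kilobase was 0.920 ± 0.0241 in MEFs, 1.03 ± 0.0168 at day 9, 1.07 ± 0.0330 in P3 ieCPCs, 1.03 ± 0.0343 in P12 ieCPCs and 1.02 ± 0.0217 in CM derivatives. The 2 genes lie head to head on chromosome 8 of mm9, from 11198423 to 11312826 on the minus strand and from 11312805 to 11449287 on the plus strand. Their annotated starts are 21 bases apart, and 22 bases of exon overlap.

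Col4a5 and Col4a6 are a head-to-head pair as well, on chromosome X, with starts 1309 bases apart. Col4a6 was lowest in MEFs, at 1.77, 2.80 and 1.79 CPM, with 4.53, 5.16 and 4.85 at day 9, 34.0, 36.4 and 36.9 in P3 ieCPCs, 48.6, 53.2 and 51.8 in P12 ieCPCs and 45.4, 46.4 and 46.1 in CM derivatives. ieCPC and CM libraries were all above those of MEFs and day 9. It rose 7.39-fold from day 9 to P3 ieCPCs (log2 change 2.88 ± 0.09, adjusted p = 1.26e-17) and was 21.8-fold higher in CM derivatives than in MEFs (log2 change 4.45 ± 0.11, adjusted p = 4.30e-20). Col4a5 started higher and climbed less steeply, from 46.5, 50.9 and 44.7 CPM in MEFs to 69.0, 72.8 and 68.5 at day 9, 126, 137 and 135 in P3 ieCPCs, 147, 141 and 141 in P12 ieCPCs and 220.2, 216 and 236 in CM derivatives. Each step up was without overlap, and that from P3 to P12 was not called (log2 change 0.11 ± 0.06, adjusted p = 0.140), except with upper-quartile scaling (adjusted p = 0.0205) and with these 6 libraries alone (0.00984). Per kilobase the Col4a5 to Col4a6 ratio went from 27.6 ± 5.24 in MEFs to 17.2 ± 0.768 at day 9, 4.42 ± 0.0544 in P3 ieCPCs, 3.34 ± 0.239 in P12 ieCPCs and 5.81 ± 0.278 in CM derivatives.

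Col4a3 and Col4a4, the last pair, with starts 72 bases apart on chromosome 1, were the scarcest of the class per kilobase. Col4a3 was at 0.192, 0.360 and 0.667 CPM in MEFs, 0.999, 1.40 and 1.504 at day 9, 4.42, 3.76 and 4.77 in P3 ieCPCs, 0.951, 1.28 and 1.41 in P12 ieCPCs and 14.9, 13.1 and 17.6 in CM derivatives. P12 libraries fell back among those of day 9, and CM libraries lay above all others. It rose 10.3-fold from MEFs to P3 ieCPCs (log2 change 3.37 ± 0.27, adjusted p = 1.38e-10), fell 3.54-fold from P3 to P12 (log2 change -1.82 ± 0.22, adjusted p = 4.65e-07) and was 3.51-fold higher in CM derivatives than in P3 ieCPCs (log2 change 1.81 ± 0.17, adjusted p = 2.58e-09). Col4a4 took the same turns, with means of 0.803 CPM in MEFs, 2.94 in P3 ieCPCs, 1.32 in P12 ieCPCs and 9.43 in CM derivatives. Its difference between MEFs and day 9 was not called (log2 change 0.52 ± 0.27, adjusted p = 0.105), except without MEF replicate 1 (adjusted p = 0.0191). Of the 6 genes, 4 thus fell from P3 to P12, Col4a6 rose (log2 change 0.52 ± 0.07, adjusted p = 6.22e-06) and Col4a5 was not called.

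Markers of cell types that make basement membrane were read beside these values. The sum of 5 endothelial markers was 3.15 to 4.18 CPM in MEFs, 14.1 to 15.6 at day 9, 27.5 to 33.0 in P3 ieCPCs, 26.4 to 28.1 in P12 ieCPCs and 10.3 to 15.6 in CM derivatives, with Emcn at 0 in both ieCPC groups. Kdr and Tek made up most of the P3 sum, at 18.21 ± 1.264 and 10.97 ± 1.621 CPM, and Tek most of the CM sum, at 10.64 ± 1.856. Cdh5 was at 0.689 ± 0.182 CPM at day 9 and 0.0470 ± 0.0210 in P3 ieCPCs. Of the 4 endothelial markers tested, 3 rose and 1 fell in that step, where 28.4% of all tested genes rose and 32.3% fell. The sum of 5 epithelial markers was highest at day 9, at 183 to 200.4 CPM against 0.921 to 1.09 in MEFs, where Cldn6 was at 0, and 18.0 to 24.0 in CM derivatives, with 15.2 to 20.5 and 18.6 to 20.9 in P3 and P12 ieCPCs. The 5 smooth muscle markers, none at 0, summed to 2893 to 2949 CPM in MEFs, 1670.4 to 1811 at day 9, 1527 to 1585 in P3 ieCPCs, 2769 to 2971 in P12 ieCPCs and 914 to 1395 in CM derivatives. Acta2 made up most of this sum in every group, at 2541 ± 34.05 CPM in MEFs and 1451 ± 58.44 at day 9. Of the 5, 3 fell and 2 rose from MEFs to day 9, where 27.4% of all tested genes fell and 29.7% rose. The smooth muscle markers that rose were Myh11, from 27.83 ± 3.795 to 42.22 ± 1.677 CPM, and Smtn, from 30.48 ± 0.822 to 36.94 ± 1.384. In CM derivatives the cardiomyocyte sum was at its highest, as were 5 of the 6 type IV genes. The fibroblast sum was too, through Dcn and Lum, although 5 of the 8 fibroblast markers were lower there than in MEFs, as were 34.7% of all tested genes. The part of any of these cell types in the type IV levels was not tested.

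**Figure D5:**
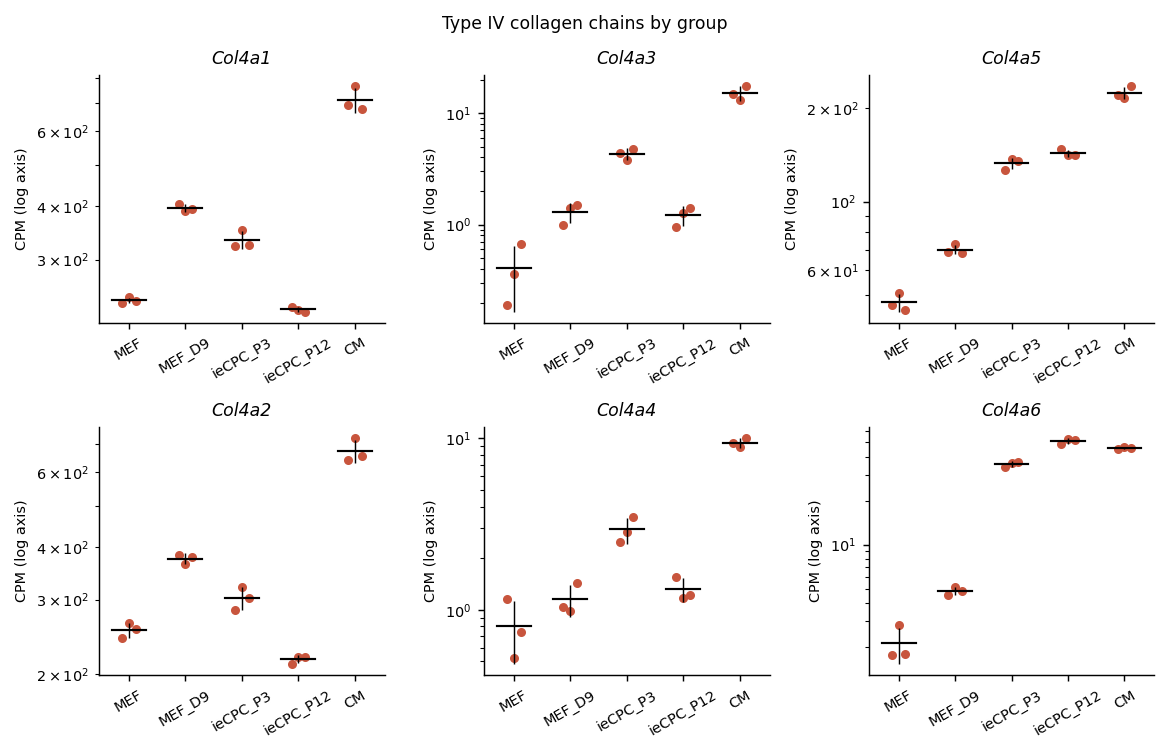
Level in CPM, on a log axis that differs between panels, of the 6 type IV genes in each library, with head-to-head partners above each other, a horizontal mark for the group mean and a vertical line for the SD. CM libraries are the highest for all but Col4a6, where P12 ieCPCs average 51.2 CPM and CM derivatives 45.9.

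The remaining FACIT genes, which coat fibrils, changed in both directions. Col12a1, the type XII chain of dense connective tissue, was at 1799, 1949.9 and 1845 CPM in MEFs, 2545, 2473 and 2561 at day 9, 1019, 1064 and 1029 in P3 ieCPCs, 1131, 1169 and 1212 in P12 ieCPCs and 599, 611 and 526 in CM derivatives. Day 9 was highest and CM derivatives lowest, and no groups overlapped. It was 3.22-fold lower in CM derivatives than in MEFs (log2 change -1.69 ± 0.06, adjusted p = 5.14e-17, -1.64 without CM replicate 3). Col14a1, the related type XIV chain, rose instead, from 28.3, 31.8 and 31.7 CPM in MEFs to 81.8, 80.6 and 75.4 at day 9, 280.2, 294 and 281 in P3 ieCPCs, 161, 169 and 172 in P12 ieCPCs and 338, 412 and 305 in CM derivatives. MEF libraries were lowest and CM libraries highest. The rise from MEFs to P3 ieCPCs was 9.31-fold (log2 change 3.22 ± 0.09, adjusted p = 2.47e-19), and the fall from P3 to P12 1.70-fold (log2 change -0.77 ± 0.08, adjusted p = 2.46e-08).

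Col16a1, the type XVI chain, varied little, with means from 20.2 ± 4.14 CPM in CM derivatives to 31.9 ± 0.885 at day 9, and was called in the 2 CM comparisons only, as lower (log2 change -0.63 ± 0.09, adjusted p = 2.46e-06 against P3 ieCPCs). Col19a1, known from smooth and skeletal muscle development, alternated at low levels, with 0.114 ± 0.00753 CPM in MEFs, 1.43 ± 0.331 at day 9, 0.328 ± 0.0225 in P3 ieCPCs, 3.34 ± 0.191 in P12 ieCPCs and 0.297 ± 0.180 in CM derivatives. Col20a1 ran between 2.39 CPM in MEFs and 3.96 in P12 ieCPCs and was called in 1 comparison, CM derivatives against MEFs, and not there without CM replicate 2. Col22a1, the type XXII chain of muscle-tendon junctions, and Col6a4 were the only members with a mean under 1 CPM in every group.

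Type VI collagen forms beaded microfilaments around cells, from the chains of Col6a1 and Col6a2 joined by that of Col6a3 or of one of its relatives Col6a4, Col6a5 and Col6a6. From day 9 to P3 ieCPCs Col6a1, Col6a2 and Col6a3 fell and Col6a5 and Col6a6 rose, while Col6a4 was not called. Col6a1 was at 366 ± 14.4 CPM in MEFs, 427 ± 6.10 at day 9, 267 ± 3.42 in P3 ieCPCs, 310.2 ± 2.93 in P12 ieCPCs and 229 ± 28.9 in CM derivatives. The falls from day 9 to P3 ieCPCs were 1.60-fold for Col6a1 (log2 change -0.68 ± 0.06, adjusted p = 3.92e-09), 1.64-fold for Col6a2 (log2 change -0.71 ± 0.06, adjusted p = 1.27e-10) and 1.99-fold for Col6a3 (log2 change -0.99 ± 0.07, adjusted p = 3.12e-11). Col6a3 was called neither from MEFs to day 9 (log2 change 0.03 ± 0.07, adjusted p = 0.738) nor from P3 to P12 (log2 change 0.07 ± 0.07, adjusted p = 0.442). Per kilobase the Col6a1 to Col6a2 ratio lay between 1.67 ± 0.0379 at day 9 and 2.01 ± 0.1 in CM derivatives. Its level rests on gene length, because the deposited Col6a2 length of 8326 bases is far above the 4653 of its longest coding transcript. With the longest coding transcripts the ratio lay between 0.997 ± 0.0227 at day 9 and 1.204 ± 0.0599 in CM derivatives.

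Col6a5 and Col6a6 were nearly silent before the progenitor stage. Col6a5 was at 0.422, 0.481 and 0.562 CPM in MEFs and 0.200, 0.265 and 0.410 at day 9, then at 20.01, 19.6 and 19.1 in P3 ieCPCs, 3.57, 3.81 and 3.85 in P12 ieCPCs and 46.3, 53.8 and 70.7 in CM derivatives. The ieCPC and CM libraries all lay above the MEF and day 9 libraries, with P12 between. It rose 66.0-fold from day 9 to P3 ieCPCs (log2 change 6.04 ± 0.21, adjusted p = 4.04e-17), fell 5.22-fold to P12 (log2 change -2.39 ± 0.14, adjusted p = 1.56e-12) and was 2.903-fold higher in CM derivatives than in P3 ieCPCs (log2 change 1.54 ± 0.11, adjusted p = 1.81e-11, 1.35 without CM replicate 3). Col6a6 was at 0.691, 0.521 and 0.456 CPM in MEFs, 0.666, 0.493 and 0.684 at day 9, 33.2, 33.3 and 31.2 in P3 ieCPCs, 3.95, 4.36 and 4.12 in P12 ieCPCs and 35.0, 28.1 and 46.4 in CM derivatives. P3 and CM libraries overlapped, and P12 libraries lay well below both. It rose 52.3-fold from day 9 to P3 ieCPCs (log2 change 5.71 ± 0.19, adjusted p = 1.58e-17) and fell 7.84-fold to P12 (log2 change -2.97 ± 0.14, adjusted p = 4.77e-14), and the difference between CM derivatives and P3 ieCPCs was not called (log2 change 0.16 ± 0.11, adjusted p = 0.235).

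Type VIII collagen, a short-chain network of vessel walls and of the membrane under the corneal endothelium, had chains in different proportions from group to group. Col8a1 was at 367, 386 and 371 CPM in MEFs, 708, 733 and 739 at day 9, 153, 169.8 and 158 in P3 ieCPCs, 94.7, 96.0 and 106 in P12 ieCPCs and 457, 496 and 349.6 in CM derivatives. Day 9 libraries were highest and P12 libraries lowest. It fell 4.54-fold from day 9 to P3 ieCPCs (log2 change -2.18 ± 0.09, adjusted p = 6.70e-16) and was 2.71-fold higher again in CM derivatives (log2 change 1.44 ± 0.09, adjusted p = 8.49e-13, 1.57 without CM replicate 3). Col8a2 was at 6.29, 5.01 and 7.76 CPM in MEFs, 35.6, 38.6 and 36.7 at day 9, 143, 138 and 141 in P3 ieCPCs, 104, 100.3 and 104 in P12 ieCPCs and 32.5, 31.8 and 24.3 in CM derivatives. The 2 ieCPC groups lay above all other libraries. It rose 22.0-fold from MEFs to P3 ieCPCs (log2 change 4.46 ± 0.11, adjusted p = 3.58e-20) and was 4.74-fold lower in CM derivatives than in P3 ieCPCs (log2 change -2.25 ± 0.09, adjusted p = 7.79e-16). Per kilobase the Col8a2 to Col8a1 ratio was 0.0194 ± 0.00451 in MEFs, 0.0579 ± 0.00185 at day 9, 1.00 ± 0.0699 in P3 ieCPCs, 1.18 ± 0.0742 in P12 ieCPCs and 0.0777 ± 0.00421 in CM derivatives.

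Col7a1, the chain of the anchoring fibrils that tie the epidermis to the dermis, dropped after day 9. It was at 23.0, 24.4 and 26.2 CPM in MEFs and 30.1, 27.0 and 28.3 at day 9, against 1.39, 2.21 and 1.70 in P3 ieCPCs, 3.04, 2.38 and 3.34 in P12 ieCPCs and 1.06, 1.10 and 1.90 in CM derivatives. The MEF and day 9 libraries were above all others by a wide margin. Its fall from day 9 to P3 ieCPCs was 16.1-fold (log2 change -4.01 ± 0.14, adjusted p = 6.61e-17). The multiplexins Col15a1 and Col18a1, chains of the basement membrane zone of which the second is the source of endostatin, went different ways. Col18a1 was at 50.2 ± 0.851 CPM in MEFs, 93.1 ± 1.56 at day 9, 44.4 ± 0.841 in P3 ieCPCs, 14.5 ± 1.41 in P12 ieCPCs (log2 change -1.62 ± 0.07, adjusted p = 3.14e-14 against P3) and 30.2 ± 3.28 in CM derivatives. Col15a1 fell at day 9, from 11.7 ± 0.894 to 6.36 ± 0.431 CPM (log2 change -0.88 ± 0.11, adjusted p = 2.36e-07), and was at 18.0 ± 1.16 in P3 ieCPCs, 22.1 ± 1.40 in P12 ieCPCs and 10.5 ± 1.58 in CM derivatives.

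The 4 transmembrane collagens, which are anchored in the cell surface, all rose from MEFs to day 9 and were all higher in P3 ieCPCs and in CM derivatives than in MEFs. Of all tested genes, 29.7% were higher than in MEFs at day 9, 33.3% in P3 ieCPCs and 35.9% in CM derivatives. The MEF reference for Col13a1 was only 1, 1 and 2 counts. Col23a1 had the largest rise from MEFs to day 9 among collagen genes with at least 10 CPM. It was at 1.04, 1.08 and 1.23 CPM in MEFs, 19.8, 14.4 and 19.8 at day 9, 13.8, 15.3 and 16.5 in P3 ieCPCs, 34.1, 34.8 and 36.8 in P12 ieCPCs and 13.3, 14.6 and 11.2 in CM derivatives. MEFs were lowest and P12 ieCPCs highest, without overlap with other groups. It rose 16.1-fold from MEFs to day 9 (log2 change 4.005 ± 0.16, adjusted p = 1.11e-15) and 2.32-fold from P3 to P12 (log2 change 1.21 ± 0.10, adjusted p = 2.04e-09, edgeR). Col25a1, known from neurons, rose 4.14-fold from P3 to P12, from 4.88, 5.11 and 4.84 CPM to 19.7, 21.3 and 20.4 (log2 change 2.05 ± 0.15, adjusted p = 2.35e-10), and was at 3.70 ± 1.79 CPM in CM derivatives. Col13a1 and Col17a1 stayed low, with highest means of 2.18 ± 0.0502 CPM in P3 ieCPCs and 3.64 ± 0.635 in P12 ieCPCs, and the rise of Col17a1 to day 9 was not called by limma voom or without MEF replicate 1 or 3 or day 9 replicate 1 or 3. Col28a1, the type XXVIII chain, was highest in CM derivatives, at 7.27, 10.2 and 8.44 CPM against 1.38, 1.28 and 1.58 in MEFs, 0.366, 0.0759 and 0.205 at day 9 and 0.712, 0.724 and 0.636 in P3 ieCPCs, a 12.4-fold rise over P3 ieCPCs (log2 change 3.64 ± 0.23, adjusted p = 3.02e-12).

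The enzymes that modify and fold collagen chains were mostly lower at day 9 than in MEFs. Of 17 such genes tested, 2 rose and 12 fell from MEFs to day 9, 11 rose and 1 fell from day 9 to P3 ieCPCs, and 7 rose and 5 fell from P3 to P12. In CM derivatives 2 were higher and 12 lower than in P3 ieCPCs. Of all tested genes, 29.7% rose and 27.4% fell from MEFs to day 9. The shares were 28.4% and 32.3% from day 9 to P3 ieCPCs and 17.3% and 19.5% from P3 to P12. In CM derivatives 31.9% of all tested genes were higher and 31.2% lower than in P3 ieCPCs. Neither this list nor those below were tested as sets. P4ha1, a catalytic subunit of the prolyl 4-hydroxylase that stabilises the triple helix, fell from 178, 178 and 185 CPM in MEFs to 64.6, 71.5 and 70.3 at day 9 (log2 change -1.39 ± 0.06, adjusted p = 3.84e-15) and was at 57.2 ± 5.23 in CM derivatives. Its relative P4ha3 went up instead, from 60.8 ± 4.42 CPM in MEFs to 160.1 ± 4.24 in P3 ieCPCs (log2 change 1.40 ± 0.08, adjusted p = 1.12e-13). Leprel1 (P3h2), a prolyl 3-hydroxylase known to act on type IV chains, was at 3.15, 4.17 and 2.84 CPM in MEFs, 9.56, 10.2 and 10.5 at day 9, 48.5, 47.8 and 50.7 in P3 ieCPCs, 15.9, 18.7 and 17.4 in P12 ieCPCs and 20.6, 20.1 and 26.4 in CM derivatives. P3 ieCPCs were highest and MEFs lowest, with a 14.5-fold rise between them (log2 change 3.86 ± 0.12, adjusted p = 2.93e-18). In CM derivatives Serpinh1, the collagen chaperone HSP47, was at 168 ± 19.6 CPM against 519 ± 14.2 in MEFs (log2 change -1.63 ± 0.07, adjusted p = 7.15e-16), while Plod2, the lysyl hydroxylase of the telopeptides, was higher than in P3 ieCPCs, at 422 ± 41.3 against 192 ± 4.01 CPM (log2 change 1.14 ± 0.06, adjusted p = 9.65e-14).

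Among 8 genes for propeptide removal, 3 rose from day 9 to P3 ieCPCs. They were the N-proteinase genes Adamts3 and Adamts2 and, named here after its values were seen, Tll2, a tolloid relative that went from 0.104 ± 0.148 to 0.783 ± 0.188 CPM. Adamts3 was at 6.91, 7.49 and 7.02 CPM in MEFs, 4.40, 5.04 and 4.48 at day 9, 108, 112 and 112 in P3 ieCPCs, 45.6, 46.1 and 42.6 in P12 ieCPCs and 20.1, 15.9 and 23.9 in CM derivatives. P3 ieCPCs were highest and day 9 cultures lowest, without overlap. From day 9 to P3 ieCPCs it rose 23.9-fold (log2 change 4.58 ± 0.10, adjusted p = 1.98e-20), and Adamts2 rose 5.13-fold, from 51.9 ± 2.05 to 266 ± 1.46 CPM (log2 change 2.36 ± 0.06, adjusted p = 6.85e-19). The other N-proteinase gene, Adamts14, fell 3.05-fold in that step and rose again from P3 to P12, from 10.0 ± 0.821 to 29.8 ± 1.95 CPM (log2 change 1.57 ± 0.09, adjusted p = 1.07e-12). Tll1, a relative of the C-proteinase Bmp1, fell from 62.9 ± 4.83 CPM in MEFs to 2.60 ± 0.313 in P3 ieCPCs (log2 change -4.59 ± 0.11, adjusted p = 6.55e-20). Over the list, 2 rose and 5 fell from MEFs to day 9, 3 rose and 4 fell from day 9 to P3 ieCPCs, 2 rose and 4 fell from P3 to P12, and 2 were higher and 5 lower in CM derivatives than in P3 ieCPCs. The changed shares of all tested genes in these comparisons were 57.2%, 60.7%, 36.8% and 63.1%, in that order.

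The 5 lysyl oxidase genes, whose enzymes crosslink collagen and elastin, all fell from MEFs to day 9, where 27.4% of all tested genes fell. Loxl3 went from 132, 136 and 137 CPM in MEFs to 52.2, 60.1 and 54.1 at day 9 (log2 change -1.29 ± 0.08, adjusted p = 3.57e-12) and to 32.1 ± 1.03 in P3 ieCPCs. Loxl1 fell at day 9 and then rose 2.67-fold to P3 ieCPCs, from 43.8 ± 0.483 to 117 ± 3.72 CPM (log2 change 1.42 ± 0.06, adjusted p = 7.84e-16). Lox itself had its highest mean in CM derivatives, with 1585, 1612 and 1119 CPM, against 787 ± 25.7 in P3 ieCPCs (log2 change 0.87 ± 0.09, adjusted p = 7.15e-09). Among collagen receptors, Itga1, the integrin subunit with a preference for type IV collagen, was at 15.3, 17.1 and 15.7 CPM in MEFs, 37.0, 39.9 and 41.0 at day 9, 49.7, 48.2 and 47.9 in P3 ieCPCs, 28.4, 29.6 and 30.05 in P12 ieCPCs and 124, 147 and 129.9 in CM derivatives. CM libraries were above and MEF libraries below all others, a difference of 8.33-fold (log2 change 3.06 ± 0.07, adjusted p = 1.85e-20). Itga11, the subunit that binds fibrillar collagen, was lower in ieCPCs, at 126 ± 1.40 CPM at day 9 and 29.8 ± 0.647 in P3 ieCPCs (log2 change -2.08 ± 0.07, adjusted p = 1.44e-17), as was Ddr2, the receptor kinase for fibrillar collagen, at 369 ± 2.42 CPM in MEFs and 133 ± 2.74 in P3 ieCPCs (log2 change -1.47 ± 0.08, adjusted p = 5.63e-14). Of 9 receptor genes tested, 4 rose and 5 fell from MEFs to day 9, 5 rose and 3 fell from day 9 to P3 ieCPCs, 2 rose and 2 fell from P3 to P12, and 6 were higher and 3 lower in CM derivatives than in P3 ieCPCs. Over all tested genes, 57.2%, 60.7%, 36.8% and 63.1% changed in these comparisons, in that order.

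Genes for collagen breakdown and its inhibitors were mostly lower in P3 ieCPCs than at day 9 and mostly higher in CM derivatives than in P3 ieCPCs. Of 8 tested, 6 rose and 1 fell from MEFs to day 9, none rose and 6 fell from day 9 to P3 ieCPCs, 2 rose and 2 fell from P3 to P12, and 6 were higher and 1 lower in CM derivatives than in P3 ieCPCs. Among all tested genes 57.2%, 60.7%, 36.8% and 63.1% changed in these comparisons, in that order. Against MEFs, 3 of the 8 were higher and 5 lower in P3 ieCPCs, where 65.8% of all tested genes changed. In CM derivatives 5 were higher and 3 lower than in MEFs, where 70.6% of all tested genes changed. Mmp13, a collagenase of cartilage and bone, was at 80.0, 39.6 and 35.0 CPM in CM derivatives, against 5.56 ± 0.309 in MEFs and 0.0349 ± 0.0345 in P3 ieCPCs. The CM libraries were far above the rest but differed widely among themselves. Mmp2, a gelatinase that also cuts type IV collagen, was at 109.6 ± 3.45 CPM in P12 ieCPCs and 499 ± 56.0 in CM derivatives. Ctsk, a collagen-degrading cathepsin, was at 10.1 ± 0.743 CPM in MEFs, 33.4 ± 2.61 at day 9 and 56.5 ± 9.02 in CM derivatives. The inhibitors Timp2 and Timp3 were 2.11-fold and 1.99-fold higher in CM derivatives than in P3 ieCPCs (log2 change 1.07 ± 0.07, adjusted p = 1.99e-12 and log2 change 0.995 ± 0.06, adjusted p = 9.70e-13). Macrophages also make such proteases, and the sum of 5 macrophage markers was 67.0 to 70.2 CPM in MEFs, 5.39 to 6.26 at day 9, 5.16 to 5.38 in P3 ieCPCs, 8.16 to 8.82 in P12 ieCPCs and 29.0 to 40.5 in CM derivatives, with C1qb at 0 at day 9 and, with Emr1, in both ieCPC groups. Their part in these levels was not tested.

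Ranked by level per kilobase of deposited length, Col1a1, Col1a2 and Col3a1 led the family in every group. In P3 ieCPCs the order began with Col1a1 at 642 ± 31.0 CPM per kilobase, Col3a1 at 552 ± 12.23 and Col1a2 at 325 ± 9.01, followed by Col5a2 at 86.8 ± 2.06, Col11a1 at 79.9 ± 1.01, Col9a3 at 69.1 ± 0.584 and Col12a1 at 68.1 ± 1.54. Col9a3 and Col12a1 do not differ there beyond their spread. In MEFs Col9a3 was at 0.246 ± 0.0684 on the same scale, and Col12a1 at 122 ± 5.06. In CM derivatives Col3a1 came first, at 666 ± 37.4, ahead of Col1a1 at 523 ± 32.4, and Col4a1 and Col4a2 stood at 104 ± 7.10 and 102 ± 6.43. The order rests on the deposited lengths. With the longest coding transcripts, Col3a1 was 1.17 ± 0.0562 times Col1a1 in P3 ieCPCs and Col1a1 was 0.962 ± 0.0265 times Col1a2, so that Col3a1 came first there. Of the 43 genes, 33 reached a mean of 10 CPM in some group, 18 did so in every group, and 30 were at 1 CPM or more in all 5 groups.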

How the data were processed

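Total RNA (10 µg a library) was sequenced on an Illumina GAIIx, per the labels' protocols. Reads were aligned with TopHat2 2.0.13 to mm9 and counted with featureCounts of Subread, as the submitters' processing notes say. The authors' raw counts are whole numbers per gene, not normalized, and all tests used them. The deposited CPM and the deposited FPKM columns give no value in the text, and in 14 of 15 libraries the authors' FPKM values equal CPM divided by the counts of the preceding library. Positions are on mm9, and sequences come from GENCODE M21 transcripts (GRCm38).

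Genes kept by filterByExpr, 17999 with all 43 collagen genes, were scaled by TMM and fitted in edgeR 4.0.16 (limma 3.58.1, R 4.3.3) with a mean per group. Contrasts were tested 2-sided with the quasi-likelihood F test and Benjamini-Hochberg adjustment. The SE is the log2 change over the square root of F, and the common biological coefficient of variation was 0.0679. The procedure was tested on simulated data. Alternatives included DESeq2 1.42.0. The collagen genes and the lists of modifying, receptor and marker genes (97 of 99 symbols in the table) were chosen with earlier results of these data known. Named throughout are the genes of types I to IV and IX. In each comparison the 4 called rises and 4 called falls of greatest size among collagen genes with at least 10 CPM and no overlap of libraries are added, then other collagen genes by level and up to 4 genes of each list.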

Additional observations from a re-analysis of the deposited data

How the results depend on the processing

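The collagen share of counts moved with its denominator: without mitochondrially encoded genes it was 2.79% in MEFs, 3.78% at day 9, 2.87% in P3 ieCPCs, 3.11% in P12 ieCPCs and 2.62% in CM derivatives, and with counts per kilobase 0.448%, 0.681%, 0.673%, 0.652% and 0.259%. Per kilobase the day 9 libraries ranged from 0.603% to 0.729% and overlapped those of P3 ieCPCs (0.631% to 0.694%) and P12 ieCPCs (0.637% to 0.662%). The choice of the longest coding transcript for chain ratios was made after seeing the data. Counts of called collagen genes stayed within 1.5 times the reported count under RLE and upper-quartile scaling, DESeq2, limma voom, no filter beyond 1 count, leaving out mitochondrial genes, only the 6 libraries compared and each left-out library, and no called gene changed sign. The widest range was 13 to 20 genes higher from P3 to P12 ieCPCs, where upper-quartile scaling also turned the split over all genes from 3122 higher and 3507 lower to 3935 and 2752. At most 5 collagen calls were lost with 1 library left out. Of 111 log2 changes of the genes the text names by rule, 5 lost their call and 3 gained one under some setting, and each is given with its gene. Over all members, calls were lost in some setting for Col1a1, Col1a2, Col2a1, Col5a1, Col5a2, Col5a3, Col6a2, Col6a4, Col8a1, Col11a2, Col12a1, Col15a1, Col17a1, Col18a1, Col19a1, Col20a1, Col22a1 and Col25a1. Same-numbered libraries did not deviate together (18 correlations from -0.0717 to 0.0826), so no pairing by number was seen. With 3 libraries a group, this cannot show whether same-numbered libraries share a culture. A replicate block gave 27 higher and 5 lower collagen genes at day 9, 19 and 18 from day 9 to P3 ieCPCs, 24 and 14 in CM derivatives against MEFs, and the reported counts in the other 3 comparisons. Genes of a few counts per library, such as Col6a4 and Col22a1, have wide errors at this depth.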

Other observations

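Genes outside the 43 with a run of at least 20 GG units, not checked for frame, gave further values. Those named here were chosen after their levels were seen. Col26a1, listed in the table under its older name Emid2 and so not among the 43, was at 0.230, 0.681 and 0.246 CPM in the MEF libraries, 4.13, 3.45 and 3.25 at day 9, 1.96, 1.38 and 1.59 in P3 ieCPCs and 2.96, 1.31 and 1.28 in CM derivatives. C1qtnf3, a secreted protein with a short collagen stalk also known as cartducin, was at 13.7 ± 0.802 CPM in MEFs, 205 ± 17.7 at day 9, 21.2 ± 1.52 in P3 ieCPCs, 84.8 ± 7.06 in P12 ieCPCs and 1.42 ± 0.318 in CM derivatives (SD, n = 3). Colec12, a scavenger receptor with a collagen stalk, was at 71.8 ± 0.411 CPM in P3 ieCPCs and 279.6 ± 37.6 in CM derivatives. C1qtnf7 was at 0.903 ± 0.282 CPM in MEFs and 15.5 ± 1.27 in CM derivatives, and Gldn, a transmembrane collagen-like protein of nerve, at 17.4 ± 1.29 in MEFs and 0.0230 ± 0.0398 in P3 ieCPCs. The macrophage genes Marco and Msr1, which also carry collagen stalks, were at 5.32 ± 1.54 and 6.76 ± 2.02 CPM in CM derivatives, against 0 for Marco and 27.0 ± 2.17 for Msr1 in MEFs. None of these differences was tested.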
